A study of Mus musculus with 8 samples.

Results

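Chemokines are small secreted proteins that guide white blood cells, and chemokine receptors are the receptors on those cells that read them. The genes described here are all those in the deposited gene lists whose symbols follow the naming of the families Ccl, Cxcl, Xcl and Cx3cl (ligands) and Ccr, Cxcr, Xcr and Cx3cr (receptors), followed by a number and at most 1 letter. The rule found 62 gene IDs among 32285, of which 44 were ligands and 18 were receptors by name. They carry 56 different symbols, since a few symbols stand for several gene IDs. At least 1 count was found for 52 of the 62 gene IDs, and 40 had at least 50 counts over all mice.

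The counts come from single-nucleus RNA sequencing of the livers of 8 male DIAMOND mice, 1 library per mouse, a cross that the labels call 129A1/SvIm and C57BL/6J, which develops fatty liver disease and liver tumours when fed a Western diet (high fat, with sugar in the drinking water). WD tumour mice (n = 3) stayed on Western diet for 48 weeks and developed hepatocellular carcinoma. RD tumour mice (n = 2) and RD no tumour mice (n = 3) had 36 weeks of Western diet and then returned to standard chow; the first developed carcinoma and the second had none detected. Every group had received the Western diet, and no mouse kept on chow throughout was analysed here. Labels and series text disagree on timing: by the labels the mice were 48 weeks old at the end, while by the series text feeding began at 2 months. Whether a sampled piece held tumour tissue is not given in the sources used here.

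A chemokine binds a G protein-coupled receptor on a leukocyte, which then moves towards the source of the ligand and adheres there. In the liver, Kupffer cells (resident macrophages), sinusoidal endothelial cells, stellate cells (the collagen-producing pericytes) and hepatocytes can all secrete chemokines, and Ccl2 acting on Ccr2 is the classical route by which monocytes enter. The title of the series names monocyte-driven responses, and the comparison of the 3 groups addresses what accompanies a tumour under one diet and what diet reversal changes.

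Counts are unique molecular identifiers (UMIs), each standing for 1 captured RNA molecule, and levels are given as CPM, the UMIs of a gene per 1e+06 UMIs of the same library or lineage. Libraries held 17948627 to 34363108 UMIs in 6048 to 20000 nuclei with at least 300 detected genes, with medians of 1120 to 2656 UMIs per nucleus. The median mitochondrial share of UMIs per nucleus was 7.91% in WD tumour 1 and 7.51% in WD tumour 3. In the other libraries it was 1.30% to 3.28%. Its part in the differences between groups was not tested. Nuclei were assigned to a lineage by marker genes, none of which is a chemokine or receptor, and lineages are called hepatocyte-like, endothelial-like and so on. Hepatocyte-like nuclei also had to be low in the markers of the other lineages. Genes outside the marker lists were looked at after the assignment. Ptprc, the pan-leukocyte gene, averaged 977 CPM in macrophage-like, 1167 CPM in T/NK-like and 118 CPM in hepatocyte-like nuclei. Cdh5, an endothelial cadherin, averaged 151 CPM in endothelial-like, 89.9 CPM in macrophage-like and 8.61 CPM in hepatocyte-like nuclei. The part of endothelial RNA in the macrophage-like calls was not tested. Pdgfra, a gene of stellate cells and fibroblasts, averaged 328 CPM in stellate/fibroblast-like nuclei. Of the barcodes, 776 occurred in more than 1 library, out of 79794 different barcodes.

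3 libraries, 1 of each group, stood apart: RD tumour 1, RD no tumour 1 and WD tumour 2. They were singled out after marker levels and chemokine counts had been seen. Neutrophil marker genes (S100a8, S100a9, Ngp and 7 others) made up 879 CPM, 269 CPM and 84.4 CPM of the hepatocyte-like nuclei of these libraries, against 10.1 to 42.8 CPM in the other 5. Macrophage marker genes made up 790, 336 and 333 CPM of the same hepatocyte-like nuclei, against 65.2 to 178 CPM in the other 5. In RD tumour 1, which had 20000 barcodes, 87.4% of nuclei matched no lineage and only 46 were macrophage-like. All values below are listed per mouse in the order RD tumour 1 and 2, RD no tumour 1, 2 and 3, and WD tumour 1, 2 and 3. In whole libraries, fewer cells of a type and less RNA per cell cannot be told apart.

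The chemokine with the widest spread between mice was Cxcl13, the ligand that draws B cells into lymphoid follicles through Cxcr5 (gene at chr5:95956951-95961068, build GRCm38). Its whole-library level was 3403, 159, 307, 54.7, 14.9, 5.35, 847 and 14.8 CPM. The 3 highest mice were the 3 libraries that stood apart, and the groups overlapped throughout. In RD tumour 1 Cxcl13 alone gave 86.4% of all UMIs of the 62 genes, against 1.13% in WD tumour 1. Group means were 1781 ± 2294 CPM in RD tumour (SD, n = 2), 126 ± 159 CPM in RD no tumour (SD, n = 3) and 289 ± 483 CPM in WD tumour (SD, n = 3), so the spread within each group exceeded its mean. RD tumour against RD no tumour gave a log2 difference of 3.88 ± 2.17 (SE) and an adjusted p of 0.612 in edgeR's quasi-likelihood test.

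Cxcl13 was counted in nuclei of every lineage. In macrophage-like nuclei it stood at 4881, 868, 777, 263, 98.2, 38.2, 1191 and 122 CPM. In hepatocyte-like nuclei of the same mice it stood at 1893, 70.0, 133, 23.0, 5.35, 3.19, 465 and 5.46 CPM. The macrophage-like level was the higher in 8 of 8 mice. The ratio was 2.58 and 2.56 in RD tumour 1 and WD tumour 2, 5.85 in RD no tumour 1, and 11.4 to 22.3 in the other 5 mice. Against the mean of all other lineages, with the mouse as a block, macrophage-like nuclei were higher by 2.29 ± 0.19 on the log2 scale (SE; edgeR adjusted p = 1.37e-15). Among macrophage-like nuclei, those with Kupffer markers held 934, 909, 279.9, 100.5, 44.4, 1177 and 165 CPM (without RD tumour 1, which had 12 such nuclei). Those with monocyte or macrophage markers held 5321 and 312 CPM in RD tumour 1 and 2, 279 CPM in RD no tumour 1, and 0, 1168 and 4.30 CPM in WD tumour 1, 2 and 3. The 0 and the 4.30 CPM came from 0 and 1 UMI. Neutrophil-like nuclei were also called higher (0.80 ± 0.23, edgeR adjusted p = 0.0103), at 5663 CPM in RD tumour 1 and 1718 CPM in WD tumour 2, above the macrophage-like level in both. Without the 3 libraries that stood apart, the neutrophil-like difference was -0.09. In the 5 libraries that did not stand apart, T/NK-like nuclei held 132, 40.4, 3.29, 2.93 and 6.77 CPM, beside 70.0, 23.0, 5.35, 3.19 and 5.46 CPM in hepatocyte-like nuclei.

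**Figure D1:**
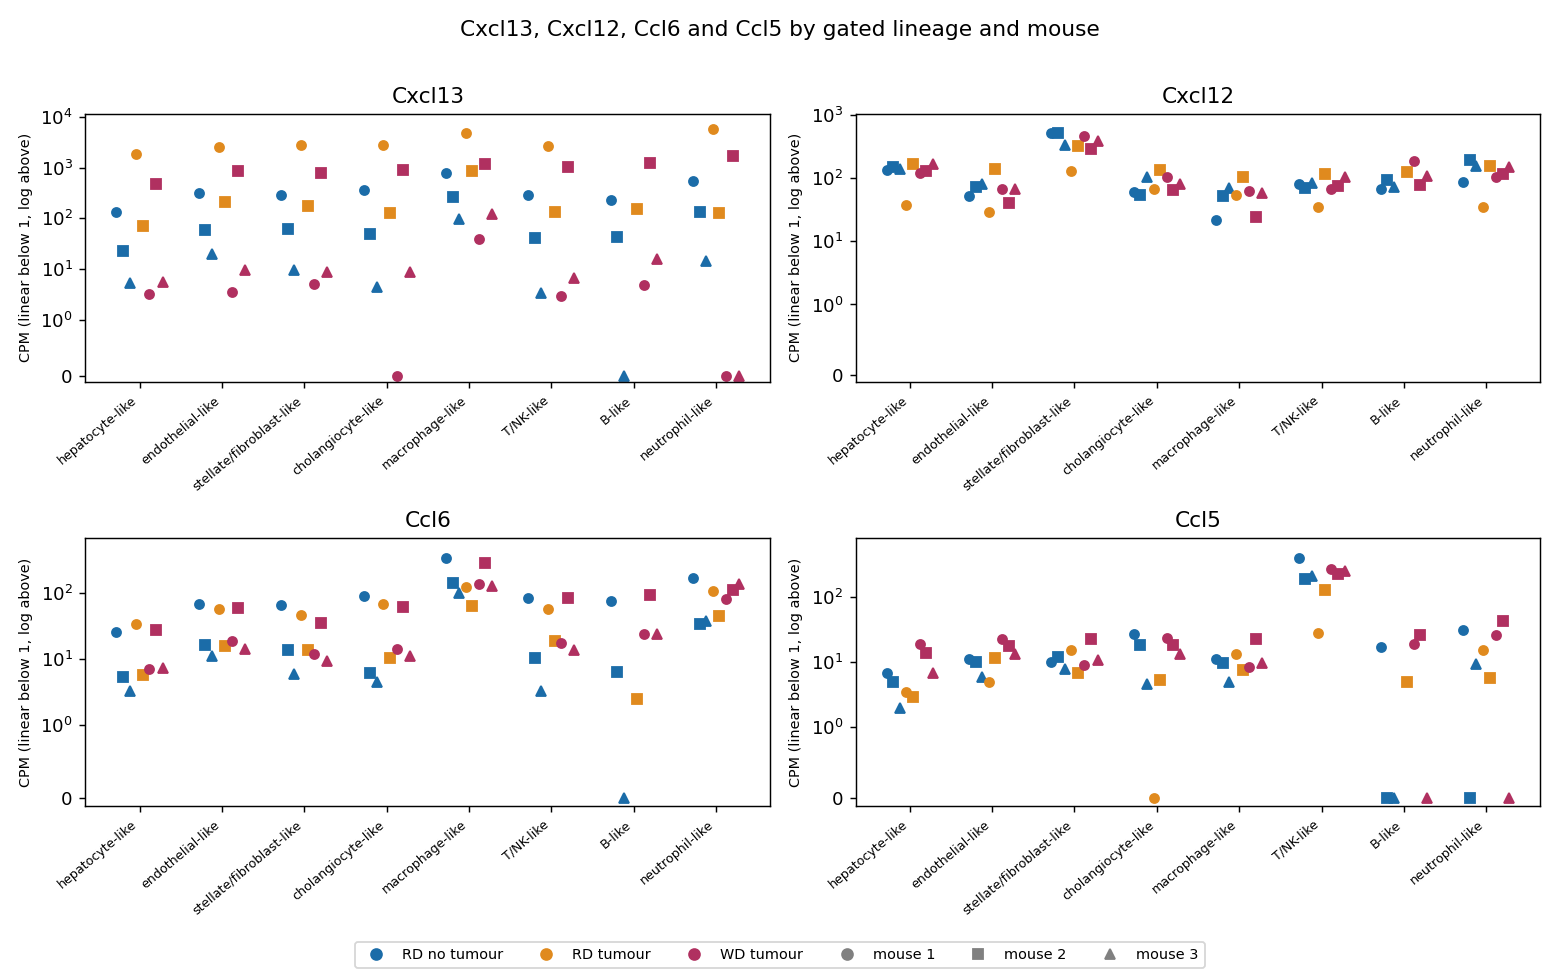
Level of 4 members (CPM, linear below 1 and logarithmic above) in each gated lineage, 1 point per mouse, coloured by group and shaped by mouse number. Cxcl13 varied by mouse in every lineage and was above the hepatocyte-like level in macrophage-like nuclei of 8 of 8 mice. By mean over mice, Cxcl12 was highest in stellate/fibroblast-like, Ccl6 in macrophage-like and Ccl5 in T/NK-like nuclei.

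4 further ligands shared the 3 highest libraries with Cxcl13. Cxcl14, a chemokine of epithelia and stroma, stood at 33.7, 1.21, 56.2, 2.21, 1.65, 1.11, 44.7 and 1.30 CPM. Ccl4, an inflammatory chemokine also called MIP-1β, stood at 73.5, 6.98, 27.2, 3.31, 3.69, 2.62, 73.4 and 4.35 CPM. For its neighbour Ccl3 the values were 13.1, 2.31, 4.87, 0.927, 1.30, 0.613, 11.6 and 1.26 CPM. The 3 libraries were above the other 5 for each of these genes, whatever their group. Ccl6, a myeloid Ccr1 ligand, had 61.5, 77.8 and 67.7 CPM in them and 11.2 to 19.1 CPM in the other 5. Genes outside the 62 could share this order. The receptor signalling gene Rgs1 had 254.6, 55.4 and 51.4 CPM in the 3 libraries and 10.2 to 20.2 CPM in the other 5. The adhesion gene Itgb2 had the same 3 highest libraries, while the adhesion gene Vcam1 did not. The share of all genes with this order was not counted, so it cannot be called particular to chemokines. The part of the neutrophil and macrophage marker RNA of these libraries in these levels was not tested.

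**Figure D2:**
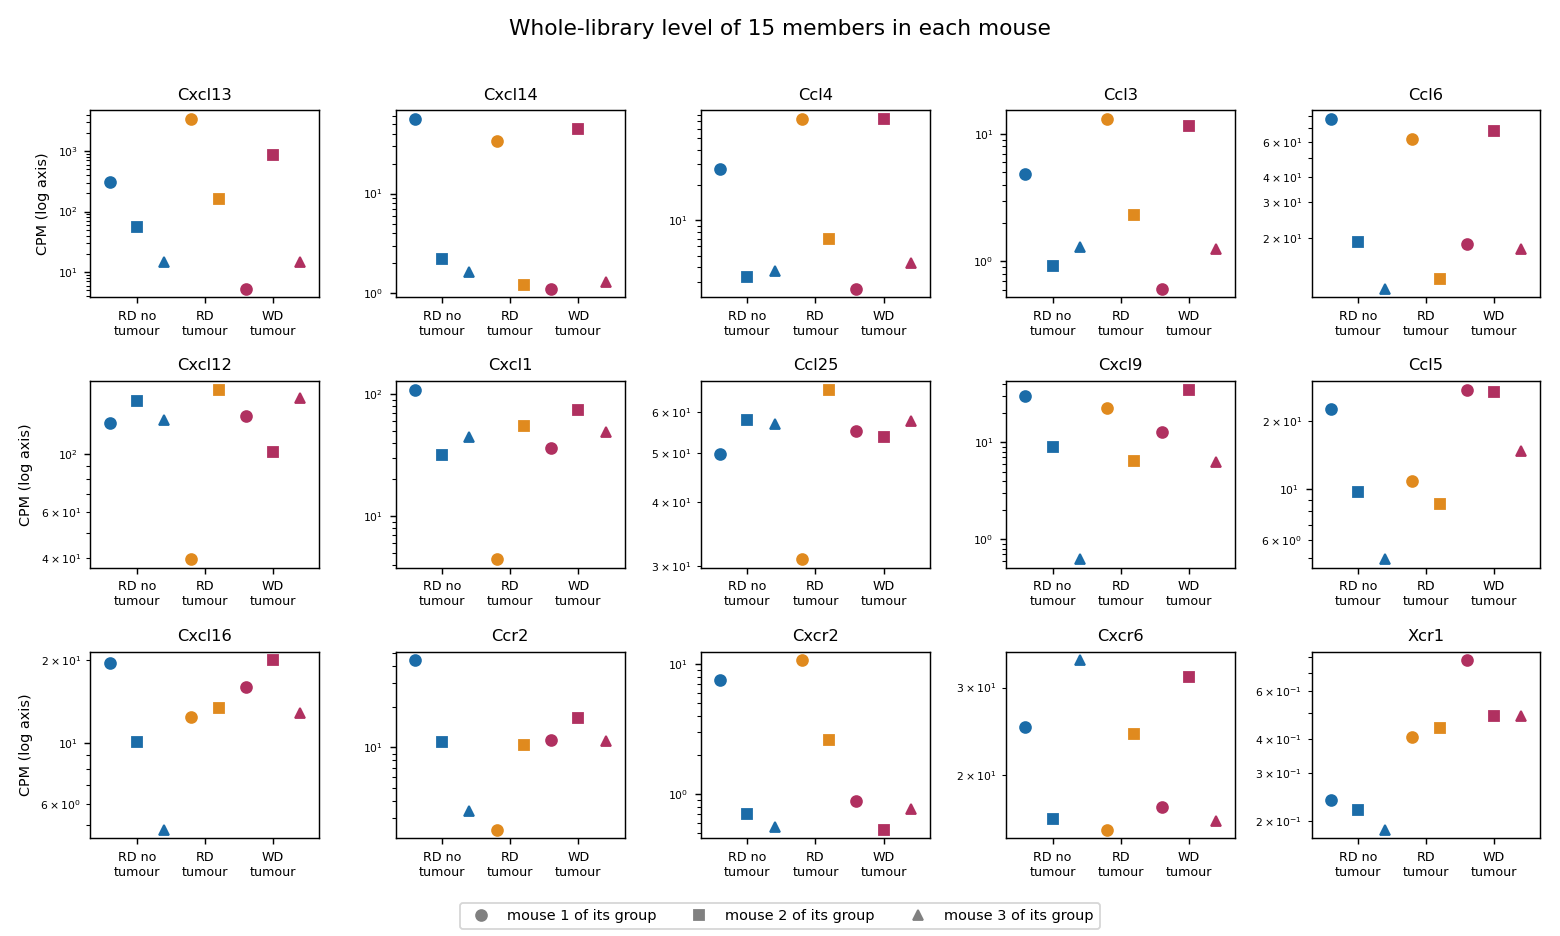
Whole-library level of 15 members (CPM, logarithmic axes), 1 point per mouse, by group and shaped by mouse number. For Cxcl13, Cxcl14, Ccl4, Ccl3 and Ccl6 the 3 highest points belong to RD tumour 1, RD no tumour 1 and WD tumour 2, 1 in each group, while Cxcl12, Cxcl1 and Ccl25 are lowest in RD tumour 1.

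Between groups, no member passed the adjusted threshold of 0.05 in whole-library sums. Of 19087 genes tested, 40 were members, and the test called 0 members and 0.0% of all genes in each of the 3 contrasts (edgeR's quasi-likelihood test, Benjamini-Hochberg). Below an unadjusted p of 0.05 were 0 members in the contrast of RD tumour with RD no tumour (6.7% of all genes). WD tumour compared with RD tumour had 2 (7.56%), and compared with RD no tumour it had 1 (2.75%). Each share is close to or above that of the members, which is 2 of 40 at most. The median log2 differences of the 40 members were -0.09, 0.26 and 0.18 in that order, beside 0.00, -0.01 and -0.01 for all genes. RD tumour contrasts rest on 2 mice. Without RD tumour replicate 2, RD tumour 1 alone stood for its group, assumed to vary like the others, and 7 and 4 members were called in the first 2 contrasts, among them Cxcl1, Cxcl12 and Cxcl17, which were lowest in RD tumour 1. That fit called 4569 and 4438 of all 19873 genes tested, a larger share than of the members.

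The 3 members under an unadjusted p of 0.05 were 2 receptors and a ligand. Cxcr2, the receptor that brings neutrophils out of bone marrow and into tissue, stood at 10.7, 2.61, 7.55, 0.706, 0.559, 0.891, 0.533 and 0.773 CPM. The 3 WD tumour mice were below both RD tumour mice, with a log2 difference of -3.19 ± 1.15 (SE; edgeR adjusted p = 0.590). The highest Cxcr2 levels were in RD tumour 1 and RD no tumour 1, which also had the most neutrophil marker RNA (2979 and 920.1 CPM of the library). Ccl17, a ligand of the T cell receptor Ccr4, gave a log2 difference of -2.90 ± 0.95 in the same contrast (SE; edgeR adjusted p = 0.590), from 1.63 and 0.184 CPM in RD tumour to 0.0557, 0.222 and 0.0813 CPM in WD tumour. These groups overlapped. Xcr1, the receptor of cross-presenting dendritic cells, stood at 0.407, 0.441, 0.240, 0.221, 0.186, 0.780, 0.489 and 0.488 CPM, from 81 UMIs in all. Its level in WD tumour was above that in RD no tumour by 1.38 ± 0.45 on the log2 scale (SE; edgeR adjusted p = 1.0).

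Groups that did not overlap were counted among genes with at least 20 UMIs in the mice compared. For RD tumour against RD no tumour they numbered 2 of 42 members, Xcr1 and Ccr7 (both higher in RD tumour), against 17.1% of all genes. WD tumour against RD tumour gave 8 of 43 members, against 21.5% of all genes: Xcl1, Xcr1, Ccr2, Ccl12 and Ccl5 were higher in WD tumour, and Cxcr2, Cxcr4 and Ccr7 were lower. For WD tumour against RD no tumour there were 3 of 42 members, against 10.8% of all genes, with Xcr1 and Ccr6 higher and Ccl17 lower in WD tumour. The member share was below that of all genes in each contrast. Xcr1, the only member in all 3 lists, was lowest in the tumour-free mice (0.186 to 0.240 CPM), intermediate in RD tumour (0.407 and 0.441 CPM) and highest in WD tumour (0.488 to 0.780 CPM). The contrasts share their mice, so these orders are not independent.

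Ccl5, a chemokine of T and NK cells, stood at 10.8, 8.63, 22.6, 9.71, 4.94, 27.4, 26.8 and 14.7 CPM in whole libraries. Ccr2, the receptor of inflammatory monocytes, stood at 2.44, 10.4, 44.4, 11, 3.35, 11.3, 16.4 and 11.2 CPM. The highest Ccr2 level was that of RD no tumour 1, a tumour-free mouse, and the means were 6.42 ± 5.62 CPM in RD tumour (SD, n = 2), 19.6 ± 21.8 CPM in RD no tumour (SD, n = 3) and 12.9 ± 2.99 CPM in WD tumour (SD, n = 3). Its ligand Ccl2 was highest in the same mouse, with 15.3 CPM, and stood at 1.80, 5.0, 1.28, 1.58, 2.12, 10.9 and 4.68 CPM in the others.

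The lineage of each member was then read from the sums per mouse and lineage, testing each lineage against the mean of the others with the mouse as a block. Of 12948 genes that passed the filter on low counts, 28 were members; the other members were not tested, and a member with counts in 1 lineage alone enters only because it is high there. Macrophage-like nuclei had 12 members called higher (23.8% of all genes tested), neutrophil-like nuclei 9 (11.0%), T/NK-like nuclei 8 (7.65%), hepatocyte-like nuclei 7 (37.3%), stellate/fibroblast-like nuclei 4 (19.8%), endothelial-like nuclei 3 (17.9%), B-like nuclei 3 (5.89%), cholangiocyte-like nuclei 2 (12.2%) and dendritic-like nuclei 1 (1.3%). These calls depend on the assignment of nuclei. Under the first version of the assignment, which asked only for 2 marker genes, 32 of the 49 member-lineage calls held, 15 lost the call and 2 reversed. Dendritic-like sums came from 2 mice, 20 nuclei in RD no tumour 1 and 28 in WD tumour 3.

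**Figure D3:**
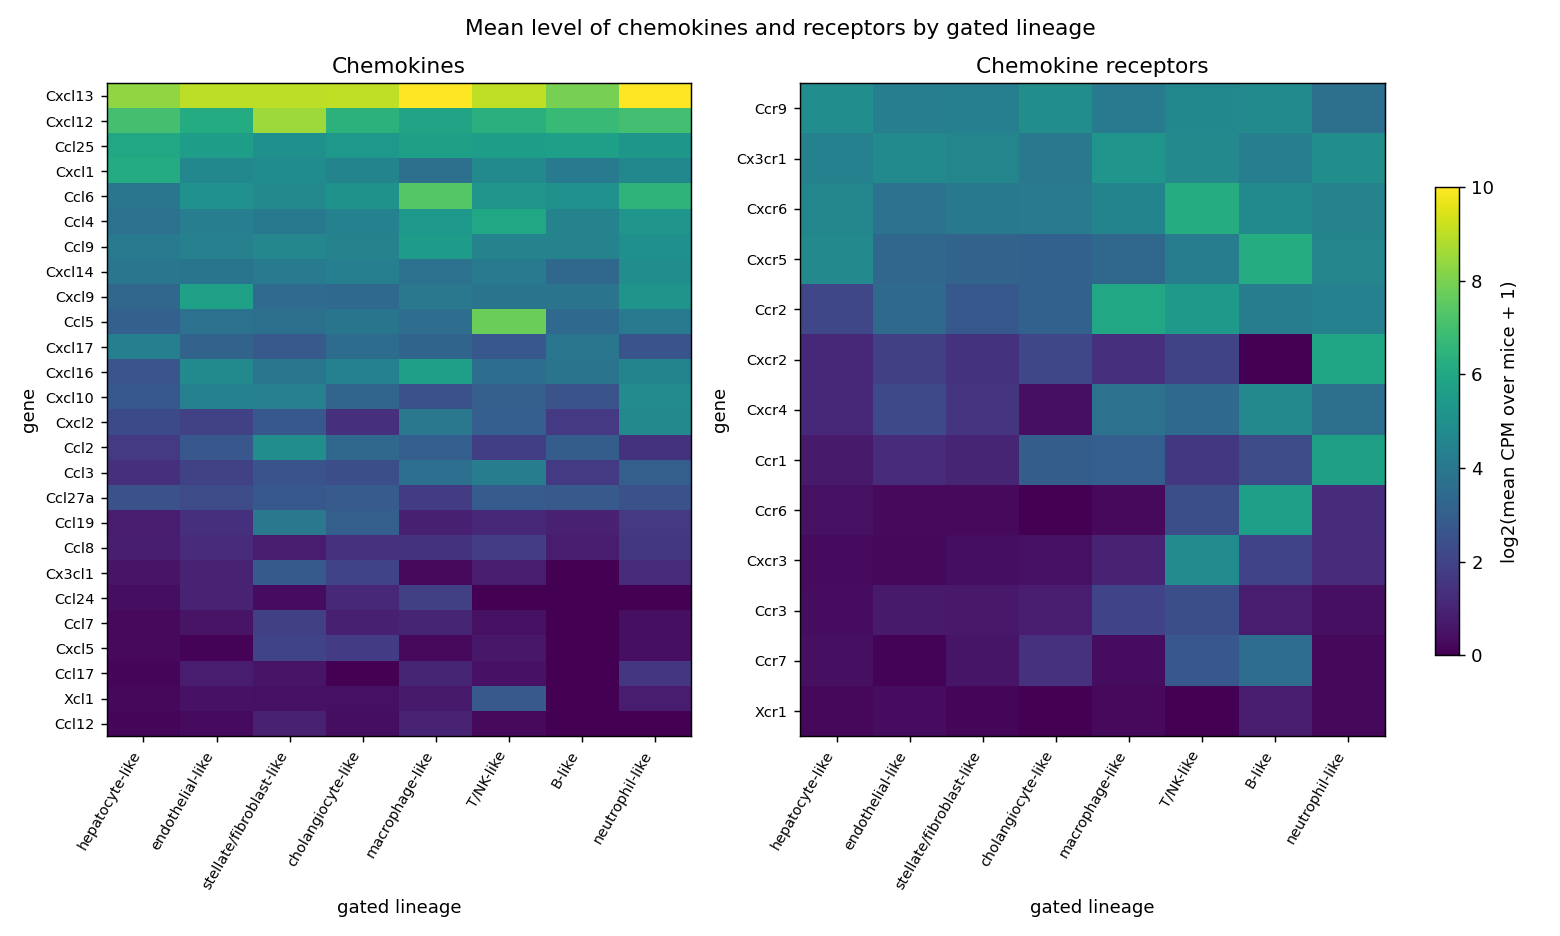
Mean level of the members reported here with at least 50 UMIs in 8 gated lineages, as log2 of the mean CPM over mice plus 1; genes are ordered by their UMIs in all libraries and the colour scale ends at 10. Ccl5 and Cxcr3 stand out in T/NK-like, Ccr6 and Cxcr5 in B-like, Cxcr2 and Ccr1 in neutrophil-like, and Ccl6 in macrophage-like nuclei.

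Among ligands, hepatocyte-like nuclei had higher Cxcl1, the neutrophil attractant read by Cxcr2, by 1.98 ± 0.18 on the log2 scale (SE; edgeR adjusted p = 2.50e-14). Its hepatocyte-like level was 7.65, 66.2, 174, 40.1, 48.8, 44.8, 118 and 67.4 CPM, lowest in RD tumour 1, and it exceeded the endothelial-like level in 8 of 8 mice (ratios of 1.18 to 6.61). Cxcl17, a mucosal chemokine, was higher there by 1.38 ± 0.21 (edgeR adjusted p = 4.13e-08) and Ccl25, the gut-homing ligand of Ccr9, by 0.70 ± 0.13 (edgeR adjusted p = 2.27e-06). Ccl25 was even between mice, at 57.6 to 83.5 CPM in 7 hepatocyte-like sums and 34.5 CPM in RD tumour 1. Cxcl17 and Ccl25 overlap genes on the opposite strand (4732471J01Rik and Elavl1) with 20226 and 18058 UMIs, and whether counting used strand is not given in the sources used here.

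Cxcl12, the homeostatic ligand of Cxcr4, was the main stellate/fibroblast-like chemokine (gene at chr6:117168535-117181367). It stood at 131, 324, 521, 517, 335, 462, 294 and 386 CPM there, and at 38.0, 167, 135, 153, 140.0, 123, 129 and 168 CPM in hepatocyte-like nuclei. The stellate/fibroblast-like level was above the hepatocyte-like level in 8 of 8 mice, by ratios of 1.93 to 3.85. Against the mean of the other lineages, stellate/fibroblast-like nuclei were higher by 2.30 ± 0.13 (SE; edgeR adjusted p = 5.94e-24) and hepatocyte-like nuclei by 0.70 ± 0.13 (edgeR adjusted p = 8.60e-06). In UMIs the order was the other way, with 13883 Cxcl12 UMIs in hepatocyte-like sums and 3642 in stellate/fibroblast-like sums.

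2 inflammatory ligands had the same leading lineage as Cxcl12. Ccl2, the monocyte attractant read by Ccr2, was higher in stellate/fibroblast-like nuclei by 3.63 ± 0.31 (SE; edgeR adjusted p = 1.04e-15), at 0, 19.5, 92, 11.2, 13.5, 10.9, 67.0 and 22.3 CPM. Ccl19, which guides Ccr7-bearing T and dendritic cells, was higher by 3.95 ± 0.35 (edgeR adjusted p = 6.43e-15), at 10.1, 11, 46.0, 14.2, 2.90, 7.89, 17.9 and 8.63 CPM. Both were also called higher in cholangiocyte-like nuclei (1.95 ± 0.60 and 2.31 ± 0.66), where at most 6 UMIs per mouse supported them. RD no tumour 1 had the highest level of both in stellate/fibroblast-like nuclei.

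Endothelial-like nuclei were marked by Cxcl9, which is induced by interferon-gamma and attracts Cxcr3-bearing T cells. It stood at 14.6, 30.6, 174, 36.8, 3.24, 39.4, 90.3 and 21.9 CPM and was higher than in the other lineages by 2.24 ± 0.24 (SE; edgeR adjusted p = 4.44e-12). The lowest and highest levels were both in tumour-free mice. Cxcl10, the second ligand of Cxcr3, was higher in endothelial-like nuclei (2.00 ± 0.53, edgeR adjusted p = 0.00202) and in stellate/fibroblast-like nuclei (2.26 ± 0.51, edgeR adjusted p = 0.000247). Without RD no tumour 1, where it reached 86.4 CPM in endothelial-like nuclei, its endothelial call had an edgeR adjusted p of 0.0949. Cxcl16, the ligand of Cxcr6, was higher in both endothelial-like (0.78 ± 0.21, edgeR adjusted p = 0.00276) and macrophage-like nuclei (1.64 ± 0.20, edgeR adjusted p = 3.15e-10).

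Cxcl9 and Cxcl10 are neighbours on chromosome 5, as are Cxcl1 and Cxcl2, and each pair shares a receptor. Cxcl1 was called in hepatocyte-like nuclei and Cxcl2 in neutrophil-like and macrophage-like nuclei, while Cxcl9 and Cxcl10 were both called in endothelial-like nuclei. The 250 bases before the start of each of these genes are shown to set the neighbours side by side. These 4 genes and the motif, 1 of 2 searched, were chosen after promoter sequences had been read. Sequences are from RefSeq on build GRCm38.p6, 5′ to 3′ on the gene's strand, with capitals marking matches to the κB motif, the binding motif of NF-κB.
Cxcl1, chr5:90890995-90891244, plus strand: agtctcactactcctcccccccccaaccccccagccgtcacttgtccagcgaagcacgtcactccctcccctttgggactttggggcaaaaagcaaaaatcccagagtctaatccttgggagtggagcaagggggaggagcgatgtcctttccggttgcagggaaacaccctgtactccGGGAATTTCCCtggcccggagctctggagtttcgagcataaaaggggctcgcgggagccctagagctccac
Cxcl2, chr5:90903649-90903898, plus strand: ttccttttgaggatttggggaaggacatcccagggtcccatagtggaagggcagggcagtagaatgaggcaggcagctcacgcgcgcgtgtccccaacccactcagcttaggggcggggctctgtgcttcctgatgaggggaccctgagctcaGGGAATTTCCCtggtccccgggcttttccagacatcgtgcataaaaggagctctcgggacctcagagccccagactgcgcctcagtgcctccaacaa
Cxcl9, chr5:92328080-92328329, minus strand: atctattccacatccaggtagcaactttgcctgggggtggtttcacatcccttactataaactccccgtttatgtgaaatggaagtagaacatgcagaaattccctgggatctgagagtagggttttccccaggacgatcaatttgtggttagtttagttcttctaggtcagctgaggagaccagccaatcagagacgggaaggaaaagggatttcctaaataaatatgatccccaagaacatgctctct
Cxcl10, chr5:92348890-92349139, minus strand: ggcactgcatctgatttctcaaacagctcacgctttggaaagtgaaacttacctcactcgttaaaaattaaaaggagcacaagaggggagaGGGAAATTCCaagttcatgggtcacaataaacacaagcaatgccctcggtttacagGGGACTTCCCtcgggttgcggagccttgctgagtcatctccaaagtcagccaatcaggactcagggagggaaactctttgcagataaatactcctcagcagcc

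Cxcl1 and Cxcl2 each hold 2 overlapping matches, and Cxcl10 holds 2 separate matches, beginning 159 and 103 bases before the start. The window of Cxcl9 has no match. Searched on both strands, the κB motif occurred in 8 of 49 windows of members in the table (42 symbols) and in 3.9% of all 32851 windows of the same length. These are matches of letters and not measured binding.

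Macrophage-like nuclei had the longest list. Besides Cxcl13, the ligands called higher there were Cxcl2 (2.95 ± 0.46), Ccl6 (2.63 ± 0.15), Ccl3 (1.98 ± 0.34), Cxcl16, Ccl4 (1.18 ± 0.31) and Ccl9 (1.11 ± 0.18), on the log2 scale with SE. Ccl6 stood at 121, 62.4, 331, 139, 98.9, 137, 283 and 125 CPM, above the hepatocyte-like level in 8 of 8 mice. The ratio was lowest in RD tumour 1 (3.62) and 10.4 to 30.6 in the other 7. Ccl6 and Ccl9 are related Ccr1 ligands, and both genes lie on chromosome 11. Receptors called there included Ccr2, Cxcr4 (1.43 ± 0.30) and Cx3cr1 (0.58 ± 0.16), the fractalkine receptor. Cx3cr1 averaged 35.8 CPM there and 19.9 CPM in hepatocyte-like nuclei, and its gene model overlaps other genes, so its call is uncertain. Under the first version of the assignment the calls of Cxcr4, Cx3cr1 and Ccl9 were lost (edgeR adjusted p = 0.156, 0.0522 and 0.248). Ccr1 was called too (1.85 ± 0.66), with 54 of its UMIs in RD no tumour 1, and without that mouse the edgeR adjusted p was 0.226.

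T/NK-like nuclei were marked by Ccl5, a product of activated T and NK cells (chr11:83525778-83530518), at 28.5, 132, 409, 195, 210.3, 272, 229 and 253 CPM. In hepatocyte-like nuclei it stood at 3.45, 2.91, 6.68, 4.91, 1.92, 18.6, 13.5 and 6.77 CPM. The T/NK-like level was higher in 8 of 8 mice, by ratios of 8.25 to 109.6, and against the mean of the other lineages it was higher by 4.38 ± 0.19 (SE; edgeR adjusted p = 6.73e-29). Ccl3 and Ccl4 were also higher in T/NK-like nuclei, by 2.40 ± 0.37 and 2.00 ± 0.31 (edgeR adjusted p = 5.31e-07 and 7.46e-07). Xcl1, which attracts Xcr1-bearing dendritic cells, was too low to be tested and averaged 5.86 CPM in T/NK-like nuclei against 0.156 CPM in hepatocyte-like nuclei.

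Among receptors, the largest differences were those of Ccr6, Cxcr2, Ccr1 and Cxcr3. Ccr6, which answers Ccl20, was higher in B-like nuclei by 5.96 ± 0.46 (SE; edgeR adjusted p = 1.32e-15), with 51.3, 30.7, 68.6, 86.5, 14.4, 41.5 and 54.4 CPM in the 7 mice with at least 20 such nuclei. Cxcr5, the receptor of Cxcl13, was higher there by 2.23 ± 0.30 (edgeR adjusted p = 3.09e-08) and Cxcr4 by 2.35 ± 0.40 (edgeR adjusted p = 7.22e-06). Cxcr3, the receptor of Cxcl9 and Cxcl10 on effector T cells, was higher in T/NK-like nuclei by 5.16 ± 0.31 (edgeR adjusted p = 1.39e-20), at 0, 33.7, 32.1, 23.6, 42.7, 32.2, 30.4 and 27.1 CPM. RD tumour 1 had 0 Cxcr3 UMIs in 49 T/NK-like nuclei, and the other 7 mice lay between 23.6 and 42.7 CPM.

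Cxcr6, a receptor of liver-resident T cells, was higher in T/NK-like nuclei by 1.97 ± 0.20 (SE; edgeR adjusted p = 1.52e-12), at 14.2, 104, 82.6, 87.5, 75.6, 64.4, 79.4 and 67.7 CPM. It was also counted in hepatocyte-like nuclei, at 14.6 to 36.9 CPM. Fyco1, a gene that overlaps Cxcr6 on the opposite strand, averaged 93.5 ± 15.1 CPM there (SD, n = 8) and 123 ± 28.2 CPM in T/NK-like nuclei (SD, n = 8). Cxcr5 likewise stood at 1.48 to 50.4 CPM in hepatocyte-like nuclei and overlaps Bcl9l on the opposite strand, which averaged 54.8 ± 18.6 CPM there (SD, n = 8). Ccr9 overlaps Lztfl1, and the Cx3cr1 gene model overlaps Wdr48. On its own strand the Cx3cr1 model also overlaps Gorasp1 and Csrnp1 (1774 and 1352 UMIs), which strand cannot separate from it. Cxcl10, Cxcl16, Ccl2, Ccl6, Ccl19, Ccl27a and Xcl1 also overlap genes on the opposite strand. For Cxcr5, Ccr9 and Cxcr6 the calls in hepatocyte-like nuclei (0.99 ± 0.21, 0.46 ± 0.15 and 0.41 ± 0.18) are uncertain for that reason. With DESeq2 size factors the Cxcr6 and Ccr9 differences were 0.22 and 0.28 (edgeR adjusted p = 0.320 and 0.105), and both calls were also lost when single mice were left out.

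Cxcr2 and Ccr1 marked neutrophil-like nuclei, with log2 differences of 5.32 ± 0.48 and 5.19 ± 0.56 (SE; edgeR adjusted p = 9.51e-13 and 1.63e-10). Cxcr2 stood at 28.1, 128, 99.1, 149, 28.4, 26.6, 10.8 and 0 CPM and Ccr1, a receptor of Ccl6 and Ccl9, at 2.55, 78.2, 52.1, 99.4, 42.5, 53.1, 10.8 and 60.7 CPM. The Cxcr2 levels came from 11, 23, 78, 9, 6, 1, 1 and 0 UMIs. Those of Ccr1 came from 1, 14, 41, 6, 9, 2, 1 and 4 UMIs, too few in most mice to rank them. RD tumour 1 had the most neutrophil-like nuclei after RD no tumour 1 (255 and 461), but its Ccr1 level, the lowest, came from 1 UMI. Among the ligands called there, Cxcl14 stood at 66.3, 81.3 and 86.4 CPM in the 3 libraries that stood apart and at 0 in the other 5. Cxcl9 stood at 45.9, 0, 25.4, 0, 0, 26.6, 184 and 0 CPM, and without those libraries its difference was -1.70. The 26.6 CPM of Cxcl9 came from 1 UMI.

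Ccr2 was higher in macrophage-like nuclei by 1.96 ± 0.22 (SE; edgeR adjusted p = 2.19e-11) and in T/NK-like nuclei by 1.40 ± 0.29 (edgeR adjusted p = 0.000171). Among macrophage-like nuclei, those with monocyte or macrophage markers held 32.3, 120.2, 915, 169.5, 317 and 198 CPM in the 6 mice with at least 20 of them (RD tumour 1 and 2, RD no tumour 1, WD tumour 1, 2 and 3). Kupffer-like nuclei held 14.8, 38.3, 41.0, 33.8 and 13.2 CPM in the same mice without RD tumour 1. The monocyte/macrophage-like level was higher in 5 of 5 mice. In RD no tumour 1 it rested on 299 UMIs from 182 nuclei, against 1 to 46 UMIs in the other mice. Dendritic-like nuclei, at 259 and 220.2 CPM in 2 mice, were higher than the other lineages by 3.36 ± 0.50 (SE; edgeR adjusted p = 2.64e-06). These levels came from 14 and 26 UMIs. Without WD tumour 3, which left 1 mouse with dendritic-like nuclei, the difference was 2.42 and the call did not hold.

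**Figure D4:**
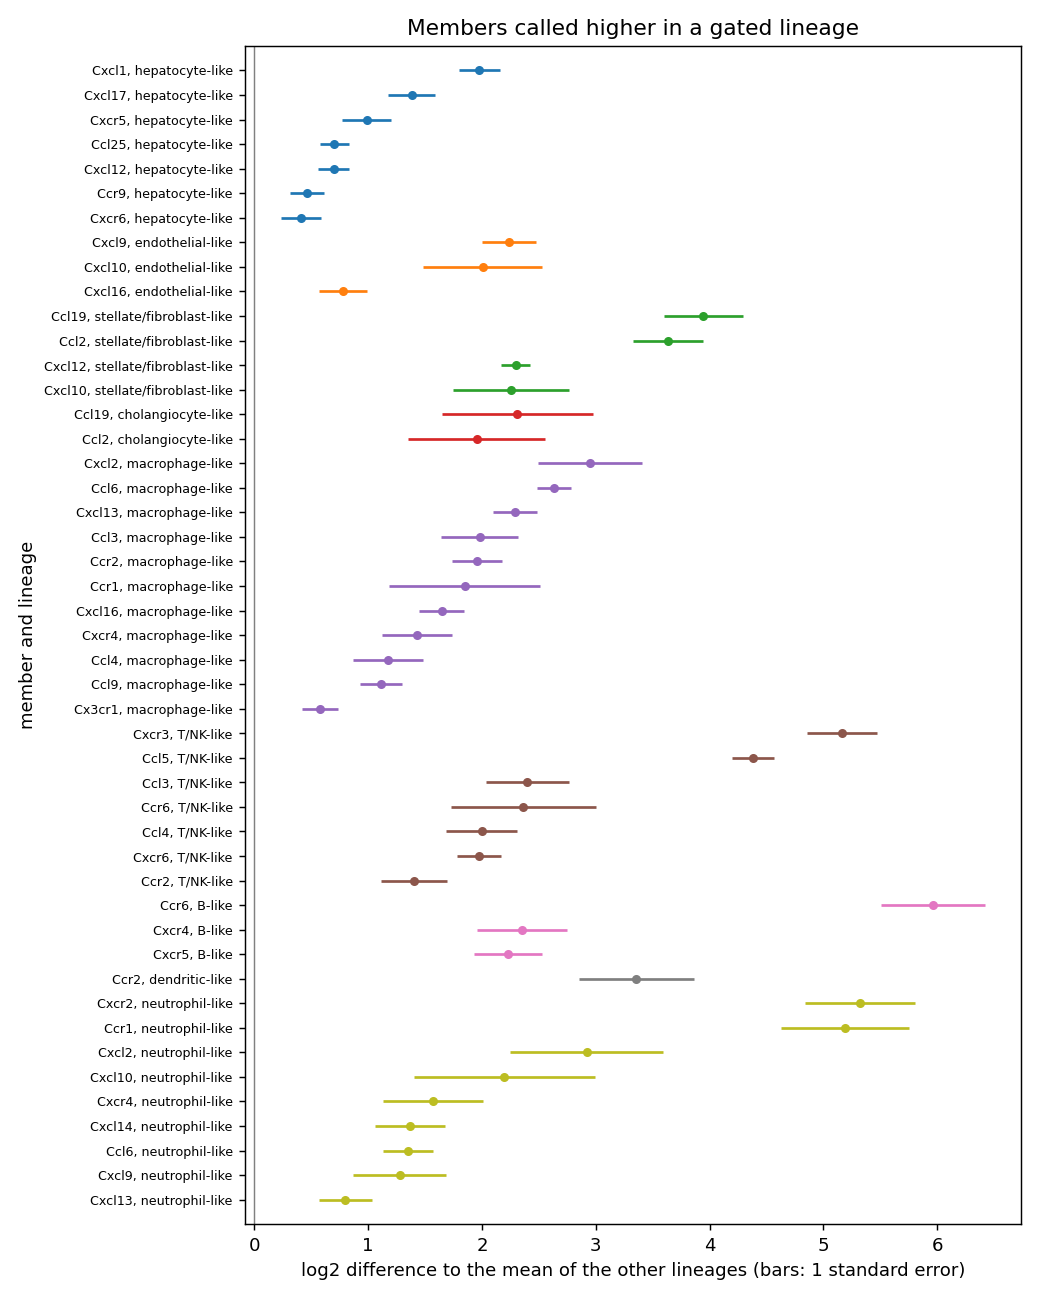
Log2 difference of each member reported here that was called higher in a gated lineage (edgeR adjusted p under 0.05) to the mean of the other lineages, with 1 standard error; colours mark lineages. The largest differences are those of Ccr6 in B-like, Cxcr2 and Ccr1 in neutrophil-like and Cxcr3 in T/NK-like nuclei, and the smallest those of Cxcr6 and Ccr9 in hepatocyte-like nuclei.

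Setting ligands beside their receptors by lineage gave 3 arrangements and further pairs outside them. In the first, the ligand was called in stroma, endothelium or hepatocyte-like nuclei and the receptor in leukocytes: Cxcl12 (stellate/fibroblast-like) with Cxcr4 (B-like and macrophage-like), Ccl2 (stellate/fibroblast-like) with Ccr2 (macrophage-like and T/NK-like), Cxcl9 (endothelial-like) with Cxcr3 (T/NK-like), Cxcl1 (hepatocyte-like) with Cxcr2 (neutrophil-like), and Ccl19 (stellate/fibroblast-like) with Ccr7, which was too low to be tested and averaged 10.8 CPM in B-like nuclei. In the second, the ligand was called in macrophage-like nuclei and the receptor in lymphocytes: Cxcl16 (also endothelial-like) with Cxcr6 (T/NK-like), and Cxcl13 (also neutrophil-like) with Cxcr5 (B-like). Of the 151467 Cxcl13 UMIs of all libraries, 4455 lay in macrophage-like sums, so most were counted elsewhere. In the third, ligand and receptor were called in the same lineage: Ccl6 with Ccr1 in neutrophil-like nuclei and, with the limit given for Ccr1, Ccl6 and Ccl9 with it in macrophage-like nuclei, Cxcl2 with Cxcr2 in neutrophil-like nuclei, and Ccl25 with Ccr9 in hepatocyte-like nuclei. For Ccr9 that call is uncertain, as above. In neutrophil-like nuclei Cxcl2 rested on 9, 4, 2, 0, 4, 0, 8 and 3 UMIs. Cxcr2 there rested on 11, 23, 78, 9, 6, 1, 1 and 0 UMIs, so not every mouse held both. Under the first version of the assignment, Ccl6 in neutrophil-like nuclei lost its call (0.56, edgeR adjusted p = 0.453). Ccl9 (0.35, edgeR adjusted p = 0.248) and Cxcr4 (1.48, edgeR adjusted p = 0.156) lost theirs in macrophage-like nuclei. Ccl3 with Ccr1 in macrophage-like nuclei, with the limit given for Ccr1, also belongs to the third arrangement. Outside the 3 arrangements, Ccl5 and Ccl3 were called in T/NK-like nuclei and their receptor Ccr1 in neutrophil-like nuclei. Ccl6, Ccl9 and Cxcl2 were called in macrophage-like nuclei and their receptors Ccr1 and Cxcr2 in neutrophil-like nuclei. By mean over mice, Ccr1 stood at 49.9 CPM in neutrophil-like and 6.89 CPM in macrophage-like nuclei. Several members had calls beyond the lineages listed here. Among them were Cxcl12 in hepatocyte-like, Ccr2 in dendritic-like, and Cxcr4 and Cxcl9 in neutrophil-like nuclei. For Ccr6 the ligand Ccl20 had 26 UMIs in all 8 libraries, and for Cx3cr1 the ligand Cx3cl1 had 192.

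Within lineages, the comparison of groups again called 0 members and 0.0% of genes at an adjusted p under 0.05 in each of the 19 fits and contrasts (edgeR's quasi-likelihood test). At an unadjusted p under 0.05, macrophage-like nuclei had 1 of 23 members for RD tumour against RD no tumour (3.16% of all genes), 2 when WD tumour was compared with RD tumour (4.83%), and 0 when it was compared with RD no tumour (2.28%). Cxcl2, a ligand of Cxcr2, gave 3.42 ± 1.09 for WD tumour against RD tumour (SE; edgeR adjusted p = 0.919), from 0 and 2 UMIs in the RD tumour mice.

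T/NK-like nuclei had 1, 1 and 0 of 16 members under an unadjusted p of 0.05 in the same order of contrasts (5.69%, 3.95% and 2.58% of all genes). This was Ccl5, at 28.5 and 132 CPM in RD tumour, 195 to 409 CPM in RD no tumour and 229 to 272 CPM in WD tumour, with both RD tumour mice lowest. The log2 differences were -1.80 ± 0.59 (SE; edgeR adjusted p = 0.810) and 1.62 ± 0.58 (edgeR adjusted p = 0.935). The RD tumour 1 level came from 4 UMIs. In hepatocyte-like nuclei (0, 1 and 1 of 29 members; 12.8%, 10.9% and 2.96% of all genes) the log2 difference of Ccl5 was 2.21 ± 0.66 for WD tumour against RD tumour (SE; edgeR adjusted p = 0.456). Set against RD no tumour it was 1.49 ± 0.54 (edgeR adjusted p = 1.0). Its lowest WD tumour level, 6.77 CPM, was next to the highest RD no tumour level, 6.68 CPM. T/NK marker genes made up 72.9, 65.5 and 31.2 CPM of hepatocyte-like nuclei of WD tumour mice, 81.3, 32.8 and 26.2 CPM of those without tumour, and 65.4 and 27.7 CPM of those of RD tumour mice. Their part in the Ccl5 level was not tested.

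Stellate/fibroblast-like nuclei had 2, 0 and 0 of 18 members under an unadjusted p of 0.05 (3.48%, 4.96% and 3.17% of all genes). The log2 difference of Cxcl12 for RD tumour against RD no tumour was -1.12 ± 0.47 (SE; edgeR adjusted p = 0.903), and that of Ccr9 was -1.41 ± 0.57 (edgeR adjusted p = 0.903). Cxcl12 stood at 131 and 324 CPM in RD tumour and 335 to 521 CPM in RD no tumour. Endothelial-like nuclei had 1, 0 and 0 of 20 members (5.32%, 5.84% and 2.09%), which was Ccr2 at 0 and 3.49 CPM in RD tumour and 4.32 to 36.3 CPM in RD no tumour (-2.98 ± 1.19, edgeR adjusted p = 0.748). Cholangiocyte-like nuclei had 0, 0 and 1 of 8 members (5.72%, 7.79% and 4.22%), which was Ccr9, with 10.9 to 30.0 CPM in WD tumour but 41.0 to 53.8 CPM in tumour-free mice (-1.27 ± 0.53, edgeR adjusted p = 1.00). B-like nuclei, compared only for WD tumour against RD no tumour, had 0 of 10 members (2.51%).

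**Figure D5:**
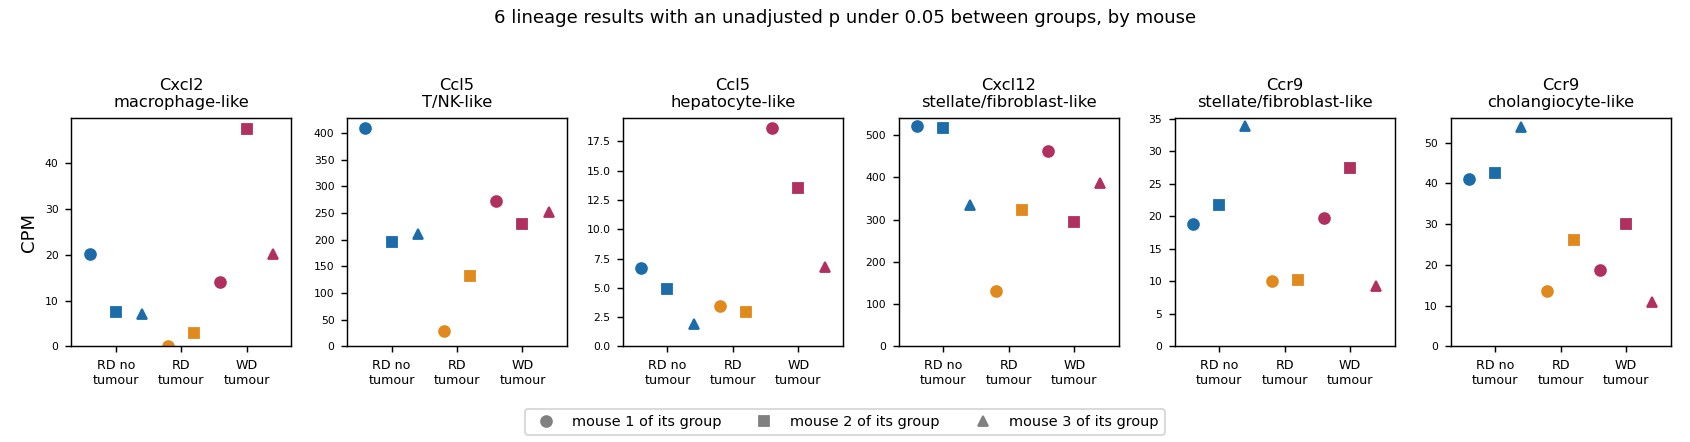
Level (CPM, linear axes from 0) of members in the named lineage (6 panels), 1 point per mouse, by group and shaped by mouse number. Both RD tumour mice are below the other 6 for Cxcl2 in macrophage-like and Ccl5 in T/NK-like nuclei, but no adjusted p was under 0.05.

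Other genes of the pathway came from 3 lists. Of 19 genes of receptor signalling and migration, 16 were called higher in macrophage-like nuclei (beside 23.8% of all genes), among them Rgs1, a brake on receptor signalling (3.47 ± 0.25, SE), Vav1 (2.80 ± 0.23) and the β-arrestin Arrb2 (2.55 ± 0.18). In T/NK-like nuclei 7 were higher (beside 7.65% of all genes), with Dock2, the Rac activator of lymphocyte migration, at 2.42 ± 0.24. In hepatocyte-like nuclei 0 were higher (beside 37.3% of all genes). The median log2 difference of the list was 1.48 in macrophage-like and -1.71 in hepatocyte-like nuclei, beside 0.00 and 0.14 for all genes tested. Of 9 genes of adhesion and ligand processing, 7 were higher in macrophage-like nuclei, led by Vcam1 (2.91 ± 0.19), with the median at 1.28, and 4 in T/NK-like nuclei, led by Itgb7 (2.81 ± 0.26) and Itga4 (2.79 ± 0.19), partners in gut and liver homing.

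The atypical receptors, which bind chemokines without G protein signalling, had lineages of their own. Of the 8 genes of this list (atypical receptors and chemokines with other symbols) 4 passed the filter. Ackr4, which removes Ccl19 and Ccl25, was higher in hepatocyte-like nuclei (1.94 ± 0.16, SE; edgeR adjusted p = 8.93e-16), and its whole-library level was 16.8, 297, 205, 281, 243, 187, 166 and 133 CPM, lowest in RD tumour 1. Ackr2, a scavenger of inflammatory Ccl ligands (3.69 ± 0.44, edgeR adjusted p = 2.62e-10), and Ackr1 (2.22 ± 0.29, edgeR adjusted p = 2.18e-09) were higher in endothelial-like nuclei. Between groups, 0 genes of the 3 lists were called in whole libraries, beside 0.0% of all genes (edgeR's quasi-likelihood test).

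The remaining members were low. 12 had 1 to 49 UMIs in all libraries together: Ccr4 (45 UMIs), Ccr10 (33), Ccl20 (26), Ccl21a (23), Ccl28 (22), Cxcr1 (16), Ccl22 (13), Ccl1 (10), Ccl11 (6), Ccl26 (4), Cxcl3 (4) and Ccr8 (1). 10 gene IDs had none, those of Cxcl15, Ccl27b, Ccl21b and Ccl21c and the extra copies of Ccl19, Ccl21a and Ccl27a; a count of 0 allows up to 3 UMIs, or 0.0873 to 0.167 CPM depending on the library, for counting error only. Reads of near-identical copies such as the Ccl21 and Ccl27 genes cannot be assigned with certainty. The Cxcr1, Ccr4, Ccr8 and Ccr10 branches therefore could not be placed in a lineage at this depth. Ccl8, Ccl24, Ccl7, Ccl12, Cxcl5, Ccl17, Cx3cl1, Xcl1, Ccl27a, Ccr3, Ccr7 and Xcr1 had at least 50 UMIs but did not pass the filter of the lineage test.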

How the data were processed

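Nuclei from 8 livers were sequenced with the 10x 3′ v3.1 kit, per the labels' protocols, and processed with Cell Ranger 7.0.0 on mm10, per the submitters' processing notes. The deposited values are raw UMI counts per gene and barcode; whether introns and strand were used is not given in the sources used here. Barcodes with at least 300 genes were kept, and UMIs were summed per mouse and per mouse and lineage (at least 20 nuclei). A lineage other than hepatocytes needed 2 distinct markers, a marker level at least 3 times that of the library and a Poisson upper tail below 0.001. Hepatocyte-like nuclei needed 4 distinct hepatocyte markers and no other lineage passing. Markers of the other lineages together had to be at most 0.5 of their library level. Hepatocyte-like nuclei were therefore chosen for low marker RNA of other lineages. The fold, Poisson and 0.5 conditions depart from the planned assignment, which only counted distinct markers. They were added after nuclei per lineage and levels of several members (among them Cxcl13, Cxcl12, Ccl4, Cxcl14, Ccr9, Cxcr6 and Cxcr5) had been seen, and before any comparison of groups; the planned version is an alternative. Doublets were not removed in the main analysis (Scrublet calls were, as an alternative).

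Sums were tested with edgeR 4.0.16 in R 4.3.3 (TMM, quasi-likelihood test, Benjamini-Hochberg over all genes tested, threshold 0.05); SE is the absolute log2 difference divided by the square root of F. DESeq2 1.42.0, other filters and leaving out each mouse were alternatives. The scripts were tested on simulated data: of 100 genes changed 4-fold in the whole-library contrast of WD tumour and RD no tumour, 21.0% were called, and of 100 changed 16-fold, 79.0%, among 19087 genes. Each group is described by mouse, and nothing beyond the labels says how the mice were housed or related. The members and the lists were chosen with earlier results of these data known. Members with at least 50 UMIs were eligible to be named with values, as were those called, with an unadjusted p under 0.05 or with groups that did not overlap. Gene positions are from GENCODE M21 on GRCm38. Some items, the second promoter motif among them, are counted in the totals but not reported here.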

Additional observations from a re-analysis of the deposited data

How the results depend on the processing

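Between groups, 0 members were called in whole libraries under each alternative except without RD tumour replicate 2, which gave 7 for RD tumour against RD no tumour and 4 for WD tumour against RD tumour; leaving out each mouse in turn gave 0 to 7, 0 to 4 and 0 in the 3 contrasts. Within lineages the same omission gave 5 and 4 (ranges 0 to 5, 0 to 4 and 0), no filter on low counts gave 2, 1 and 1 (Cxcl13), and leaving out the 3 libraries that stood apart, an alternative chosen after seeing the data, gave 1 for WD tumour against RD tumour. With RD tumour 1 alone in its group, that mouse is assumed to vary like the others. For these alternative fits within lineages, the share of all genes called is not given here. Their counts of members therefore cannot show whether members were called more often than other genes. Of the 14 single results between groups, the one that gained a call was Ccl17 (-3.72 without RD tumour replicate 2).

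With the number as a replicate block, 0 members were called in each contrast, and the share of all genes called is not given here. The samples share only a number, and deviations of same-numbered mice from their group means correlated from -0.531 to 0.439. Within groups of 2 or 3 mice such deviations depend on each other. The check therefore cannot decide whether the numbers pair the mice.

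Of the 49 lineage calls, 668 recomputed values kept the call, 50 lost it and 4 changed sign. Under the planned assignment by 2 markers, 32 held, 15 lost the call, and Ccr9 in hepatocyte-like (-0.11) and Ccl19 in cholangiocyte-like nuclei (-0.031) changed sign. Without the 3 libraries, 35 held, 4 lost the call, and Cxcl9 (-1.70) and Cxcl13 (-0.086) in neutrophil-like nuclei changed sign; the cause was not tested. Depth limits lineages with few nuclei, and 12 members had fewer than 50 UMIs.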
